A study of Homo sapiens with 15 samples.

Results

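The miRNAs described here are 8 mature miRNAs whose hairpins are known to bypass one of the usual cutting steps: hsa-miR-320a-3p, hsa-miR-320b, hsa-miR-320c, hsa-miR-320d, hsa-miR-484, hsa-miR-877-5p, hsa-miR-1226-3p and hsa-miR-451a. They were chosen by name for their route of synthesis, with earlier results of these data known. All 8 were among the 1707 mature miRNAs with counts, and all 8 passed the filter on low counts, which left 562 miRNAs for testing. U87-MG, an established line of human glioblastoma cells, was profiled by miRNA-Seq to learn how the hypoxia-inducible factors HIF1α and HIF2α act in glioblastoma cells under low oxygen. There were 5 groups of 3 libraries: control cells (labelled WT) in 21% O2 (normoxia), control cells in 1% O2 (hypoxia), and 3 kinds of knockout cells in 1% O2, which lacked HIF1α (HIF1α-KO), HIF2α (HIF2α-KO) or both factors (HIF1α/HIF2α-KO), each cultured for 24 h. The knockouts were made with CRISPR/Cas9, no knockout cells were sequenced in 21% O2, and the sources used here do not state whether each knockout was a clone or a pool. The labels do not say that the 3 replicates of a group were separate cultures, so p-values measure only the spread between these libraries.

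Most miRNAs are cut out of a long primary transcript by Drosha in the nucleus, and the resulting hairpin is then cut by Dicer in the cytoplasm. The hairpins of miR-320a and miR-484 start at the transcription start of their own short RNA, carry a 7-methylguanosine cap, skip Drosha and are still cut by Dicer. The hairpins of miR-877 and miR-1226 are mirtrons, short introns released by splicing and debranching, which also skip Drosha and need Dicer. The hairpin of miR-451a is cut by Drosha, is too short for Dicer, and is loaded into Ago2, which slices it before its end is trimmed. None of the 8 is therefore made without both enzymes. miR-320b, miR-320c and miR-320d come from further genes with nearly the same mature sequence as miR-320a, and the capped route is known to apply to miR-320a.

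The RefSeq table (GRCh38.p14) was matched to the members by name for 6 of the 8, all but hsa-miR-320a-3p and hsa-miR-451a. The miR-320 copies are shown because reads of one can match another. Capitals mark the seed, bases 2 to 8, which pairs with target mRNAs.
hsa-miR-320b: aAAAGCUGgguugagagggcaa
hsa-miR-320c: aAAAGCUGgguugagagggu
hsa-miR-320d: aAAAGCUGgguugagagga
hsa-miR-320e: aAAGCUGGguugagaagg
hsa-miR-320c had the first 19 of the 22 bases of hsa-miR-320b and hsa-miR-320d the first 18, so that only their last bases set them apart. They shared the seed AAAGCUG, which 1 further miRNA with a sequence in the table, hsa-miR-4429, also had. hsa-miR-320e, a related miRNA that is not among the 8, had another seed, AAGCUGG. Each of the 3 copies has a pair of loci. Those of hsa-miR-320b are at chr1:116671787-116671808 on the plus strand and chr1:224257049-224257070 on the minus strand.

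hsa-miR-484 and the mirtron products had other seeds. That of hsa-miR-484 was shared by hsa-miR-3155a and hsa-miR-3155b, and those of hsa-miR-877-5p and hsa-miR-1226-3p by no other miRNA with counts and a sequence in the table. The mature sequences follow, with the seed in capitals.
hsa-miR-484: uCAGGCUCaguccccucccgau
hsa-miR-877-5p: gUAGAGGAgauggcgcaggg
hsa-miR-1226-3p: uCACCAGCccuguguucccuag
The hairpin of miR-484 is at chr16:15643294-15643372 on the plus strand. It starts 27 bases after the annotated start of NDE1, a gene for a dynein-regulating protein, and lies within an exon of 1 of its 12 transcripts in GENCODE v29.

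The mirtron hairpins are shown whole, with the first and last 2 bases, the intron ends GU and AG, in capitals.
MIR877: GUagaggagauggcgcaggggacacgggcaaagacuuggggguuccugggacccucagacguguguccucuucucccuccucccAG
MIR1226: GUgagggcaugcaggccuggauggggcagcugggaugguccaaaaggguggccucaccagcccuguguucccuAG
MIR877, at chr6:30584332-30584417 on the plus strand, filled exactly an intron of 86 bases in 3 transcripts of ABCF1, which encodes an ABC protein of translation initiation. MIR1226, at chr3:47849555-47849629 on the plus strand, filled exactly an intron of 75 bases in 6 transcripts of DHX30, which encodes an RNA helicase. hsa-miR-877-5p starts at the first base of its intron, whereas hsa-miR-1226-3p ends at the last base of its own. These positions are those of the annotation, and the genome build of the authors' alignment is not given in the sources used here.

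Total counts per library ranged from 10360337 to 22496373, and levels are given in CPM, counts scaled to a library of 1000000 after TMM normalization, which corrects for library composition. The floor of detection, set at 3 counts, was at 0.13 to 0.285 CPM and covers counting error only. Differences are log2 fold changes of the fit over all miRNAs. The 4 miRNAs taken as markers of glioblastoma lines (miR-21-5p, miR-10b-5p, miR-221-3p and miR-222-3p) summed to 198000 to 301000 CPM. The neuronal miR-124-3p reached at most 0.539 CPM. HIF1A and EPAS1 mRNAs are outside miRNA-Seq, and these counts therefore hold no direct check of the knockouts. Indirect signs of them in other miRNAs are not described here. Both arms of miR-126, an endothelial miRNA, summed to 14 to 50.8 CPM in 9 libraries and to 4.01 to 6.64 CPM in the other 6. The 9 were the 3 normoxic control libraries, replicate 1 of the hypoxic control, replicate 3 of HIF1α-KO, replicates 1 and 3 of HIF2α-KO and replicates 1 and 2 of HIF1α/HIF2α-KO cells. This split runs through each hypoxic group, whereas all 3 normoxic libraries are on the side with more. In comparisons with normoxia it therefore goes in part with oxygen.

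The 8 members made up 0.0918% to 0.153% of the counts of a library. By mean level over the 15 libraries, hsa-miR-320b ranked 59 of 1707 with 561 CPM, hsa-miR-320a-3p 68 with 426 CPM, and hsa-miR-484 88 with 224 CPM. hsa-miR-320c ranked 177 with 29.2 CPM. The others were scarce, with means of 7.68 CPM for hsa-miR-451a, 4.63 CPM for hsa-miR-877-5p, 3.79 CPM for hsa-miR-320d and 1.58 CPM for hsa-miR-1226-3p. Even hsa-miR-1226-3p had 12 to 33 counts in each library, above the floor.

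**Figure D1:**
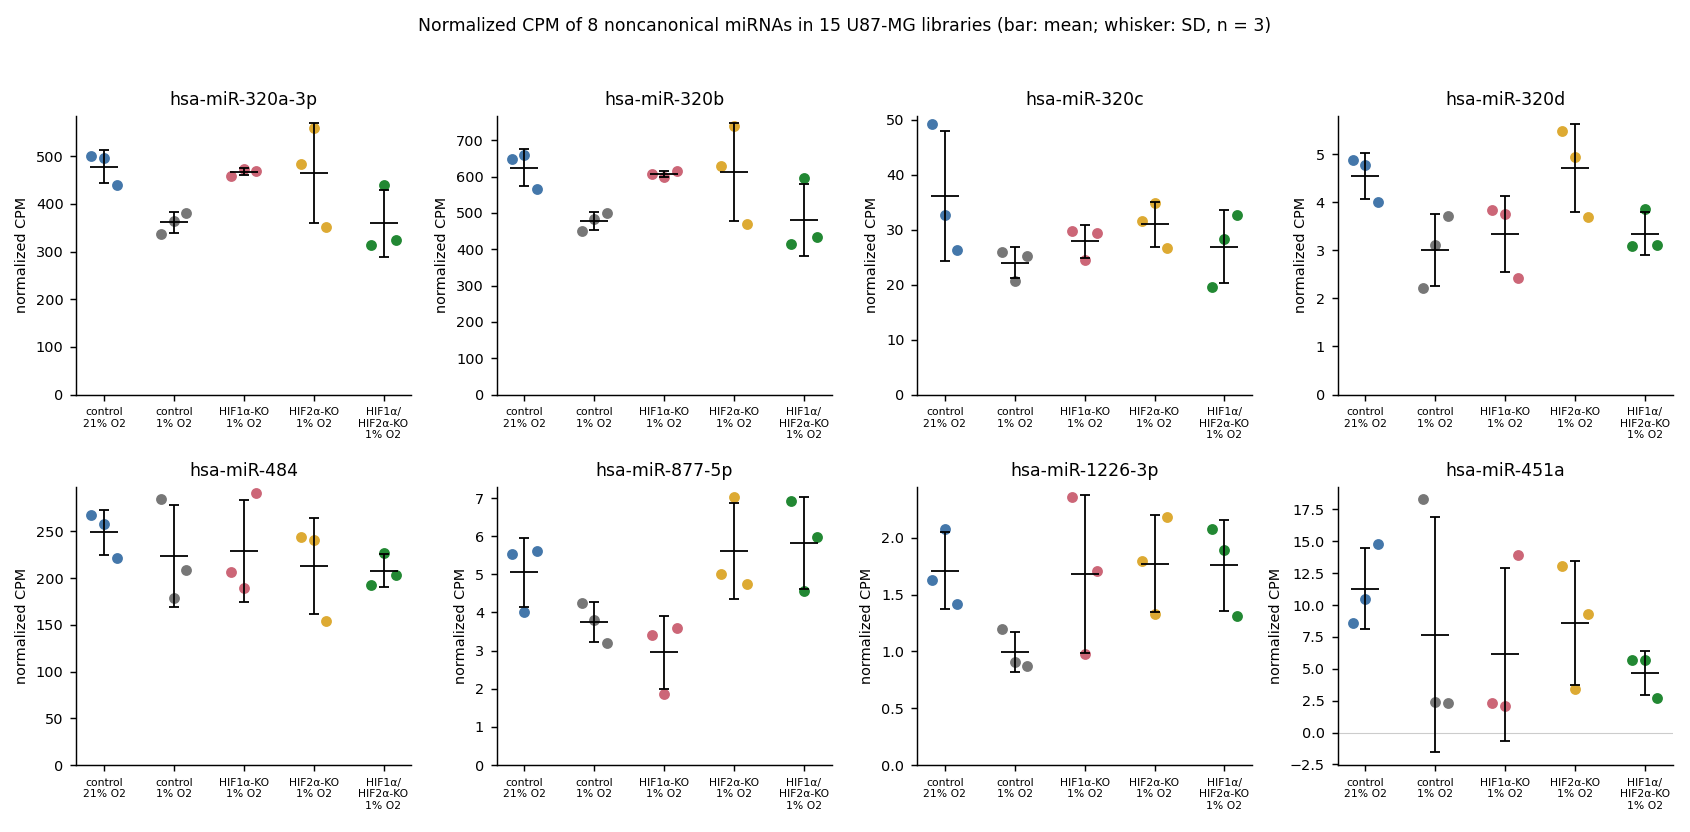
Normalized CPM (linear axis, 1 panel per miRNA) of the 8 miRNAs in control cells in 21% and 1% O2 and in the knockout cells in 1% O2; points are libraries, in the order of their replicate numbers, bars the mean and whiskers the SD of 3 libraries. The hypoxic control libraries lie below the normoxic ones for hsa-miR-320a-3p to hsa-miR-320d and for hsa-miR-1226-3p, and hsa-miR-451a runs from 2.1 to 18.3 CPM with libraries of one group far apart.

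None of the 8 members passed an adjusted p under 0.05 (edgeR quasi-likelihood test, Benjamini-Hochberg over 562 miRNAs) in any of the 11 comparisons, and their values below are given with that result. Between hypoxic and normoxic control cells the fitted value of all 8 was below 0, with a median of -0.51 against 0.01 over all miRNAs tested. An unadjusted p under 0.05 was reached by 5 of the 8, all lower in hypoxia, where 3.02% of the miRNAs tested were lower at that level. These were hsa-miR-320a-3p, hsa-miR-320b, hsa-miR-320c, hsa-miR-320d and hsa-miR-1226-3p. Over the 9 alternatives other than left-out replicates the number of members at that level was 2 to 5, with 2 for library totals and 2 without a filter. The miR-320 sequences are nearly the same and reads of one can match another. They are therefore not independent members in this and the later counts and medians. The same 5 had all hypoxic libraries below all normoxic ones, which was the case for 9.96% of the miRNAs tested. At the adjusted threshold 0% of the 562 miRNAs passed in this comparison, also with DESeq2 and with limma, and 35 had an unadjusted p under 0.05. The smallest adjusted p of a member was 0.701.

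In HIF1α-KO against hypoxic control cells, 2 members had an unadjusted p under 0.05, hsa-miR-320a-3p and hsa-miR-1226-3p, both higher. Of the miRNAs tested 5.69% were higher at that level and 1.25% passed the adjusted threshold in either direction. hsa-miR-320b had an unadjusted p of 0.0567 (edgeR). The median of the members was 0.18 and that of all tested -0.05. The paper lists hsa-miR-320a-3p and hsa-miR-320b as up in HIF1α-KO U87 cells, without p-values, and no member for HIF2α-KO cells. In the edgeR fit used here the adjusted p of these miRNAs in HIF1α-KO cells was 0.384 and 0.414. In HIF2α-KO against hypoxic control cells, 4 members were higher at an unadjusted p under 0.05, where 8.54% of all tested were. These were hsa-miR-1226-3p and the miR-320 copies hsa-miR-320a-3p, hsa-miR-320b and hsa-miR-320d. Over the 9 alternatives other than left-out replicates the number of members at that level was 0 to 4. It was 0 with library totals and 0 without a filter. With only the groups compared it was 2, hsa-miR-877-5p and hsa-miR-1226-3p. The median of all members was 0.37 against -0.01 over all tested. In this comparison 0% of all tested passed the adjusted threshold by edgeR, DESeq2 or limma, with 86 at an unadjusted p under 0.05. The double knockout, set against hypoxic control cells, had 2 members higher at an unadjusted p under 0.05, beside 11% of all tested, and 5.87% of all tested passed the adjusted threshold. Their median was 0.08 and that of all tested -0.02. These 3 comparisons and that with normoxia share the hypoxic control libraries.

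Between the knockouts 1 or 2 members had an unadjusted p under 0.05. In HIF2α-KO against HIF1α-KO cells 1 member was higher at an unadjusted p under 0.05, where 9.96% of all tested were, and 1.07% passed the adjusted threshold. Between HIF1α/HIF2α-KO and HIF1α-KO cells 1 member was higher in the double knockout and 1 lower at an unadjusted p under 0.05, where 14.9% of all tested differed either way and 1.42% passed the adjusted threshold. From HIF2α-KO to HIF1α/HIF2α-KO cells 1 member was lower, where 12.6% of all tested were, and 1.78% passed the adjusted threshold. The member medians were 0.13, -0.09 and -0.28, against 0.05, 0.02 and -0.03 over all tested.

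Against normoxic control cells, HIF1α-KO cells had 1 member lower at an unadjusted p under 0.05, beside 9.07% of all tested, with 2.31% past the adjusted threshold. HIF2α-KO cells had 0 such members, where 15.1% of all tested differed either way and 0% passed the adjusted threshold by edgeR, DESeq2 or limma. HIF1α/HIF2α-KO cells had 2 members lower, hsa-miR-320a-3p and hsa-miR-320b, beside 13.2% of all tested, with 6.41% past the adjusted threshold. These comparisons set both oxygen and genotype apart, which cannot be told apart in them. The interaction asks whether the effect of losing HIF1α differed with and without HIF2α. It had 2 members below 0 at an unadjusted p under 0.05, the same miR-320 copies, beside 6.76% of all tested. At the adjusted threshold 0% passed by edgeR, DESeq2 or limma, and 59 of all tested had an unadjusted p under 0.05.

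**Figure D2:**
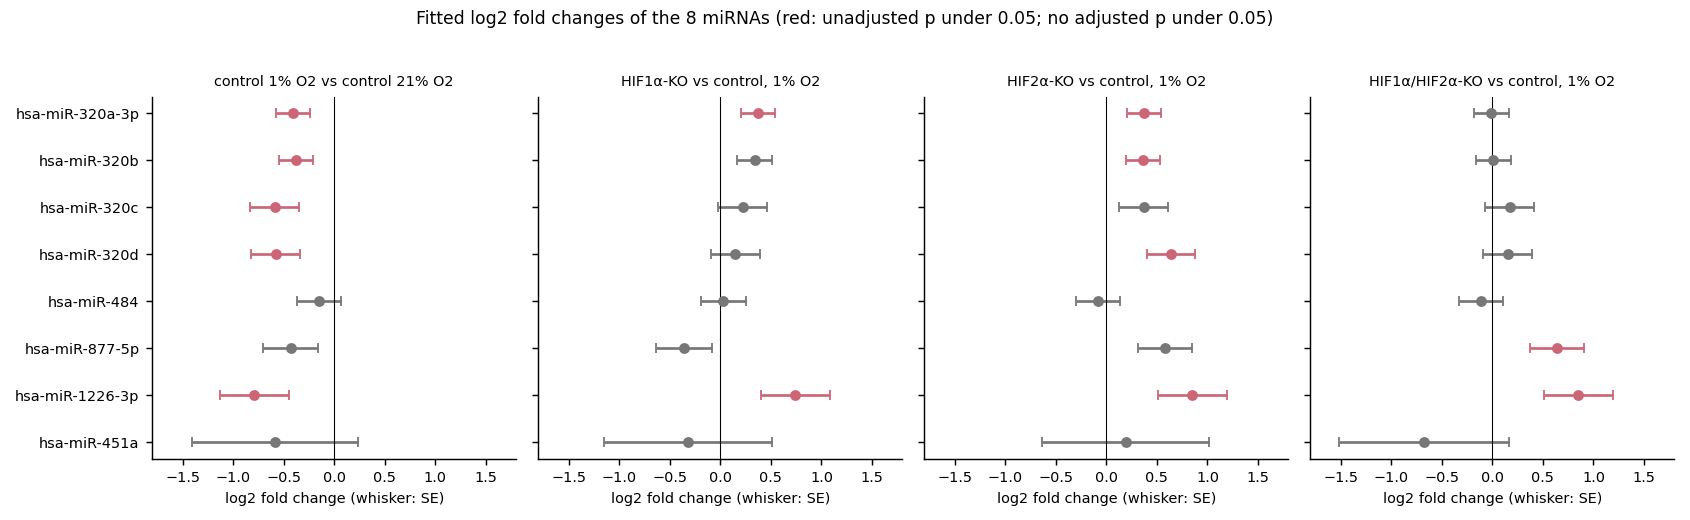
Fitted log2 fold changes (x axis) of the 8 miRNAs in 4 comparisons, with whiskers of 1 standard error; red points have an unadjusted p under 0.05. All 8 points lie below 0 in hypoxia against normoxia, and the 4 miR-320 members lie above 0 in both single knockouts, from 0.15 to 0.64, and none of the points passes the adjusted threshold.

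The first of the capped kind, hsa-miR-320a-3p, is known for limiting glycolysis through phosphofructokinase. It was at 500, 496 and 439 CPM in normoxic control cells and at 337, 365 and 381 CPM in hypoxic control cells. In HIF1α-KO cells it was at 459, 473 and 469 CPM. It was at 484, 560 and 352 CPM in HIF2α-KO cells, and at 314, 440 and 324 CPM in HIF1α/HIF2α-KO cells. All normoxic and all HIF1α-KO libraries were above all hypoxic control libraries, whereas the HIF2α-KO and the HIF1α/HIF2α-KO libraries overlapped with these and were further apart among themselves. The share of all miRNAs separated in this way was counted only for hypoxic below normoxic control cells (9.96%). For this and the later members it was not counted in comparisons with the knockouts. The mean ± SD (n = 3) was 478 ± 34.2 CPM in normoxia and 361 ± 21.9 CPM in hypoxia, a log2 fold change of -0.41 with a standard error of 0.17 (unadjusted p = 0.0281, adjusted p = 0.701). A two-sided exact permutation test of the levels gave 0.1, the lowest p possible with 3 libraries a group.

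In order of the means, hsa-miR-320a-3p was highest in normoxic control cells, then in HIF1α-KO with 467 ± 7.43 CPM and HIF2α-KO with 465 ± 105 CPM, and lowest in hypoxic control and HIF1α/HIF2α-KO cells with 359 ± 70 CPM. No neighbours in this order differed by more than the larger of their SDs. Against the hypoxic control the log2 fold change was 0.37 with a standard error of 0.17 in HIF1α-KO cells (adjusted p = 0.384) and 0.37 with 0.17 in HIF2α-KO cells (adjusted p = 0.316). In the double knockout it was -0.01 with 0.17 (adjusted p = 0.989). Both single knockouts were thus fitted above the control and the double knockout was not. The interaction that tests this was -0.74 with a standard error of 0.23, an unadjusted p of 0.00686 and an adjusted p of 0.378. Without replicate 2 of HIF2α-KO cells, the highest of all libraries, the fitted value of HIF2α-KO against control cells was 0.19.

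hsa-miR-320b followed hsa-miR-320a-3p closely. It was at 648, 658 and 566 CPM in normoxic control cells and at 450, 484 and 500 CPM in hypoxic control cells. In HIF1α-KO cells it was at 606, 599 and 616 CPM, in HIF2α-KO cells at 630, 738 and 470 CPM, and in HIF1α/HIF2α-KO cells at 415, 596 and 434 CPM. As for hsa-miR-320a-3p, the hypoxic control libraries were below all normoxic and all HIF1α-KO libraries and overlapped with the other knockouts. In order of the group means, from normoxic control down to hypoxic control cells, only the step from HIF1α-KO (607 ± 8.49 CPM) to HIF1α/HIF2α-KO cells (481 ± 99.5 CPM) exceeded the larger SD of the pair. The log2 fold change was -0.38 in hypoxia against normoxia, 0.34 in HIF1α-KO and 0.36 in HIF2α-KO against control cells, each with a standard error of 0.17, and 0.01 in HIF1α/HIF2α-KO cells. Without replicate 2 of HIF2α-KO cells the value of HIF2α-KO against control cells was 0.18. The interaction was -0.69 with a standard error of 0.23 (unadjusted p = 0.0106, adjusted p = 0.378). Its counts were 1.27 to 1.35 times those of hsa-miR-320a-3p in every library, with a median of 1.32.

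**Figure D3:**
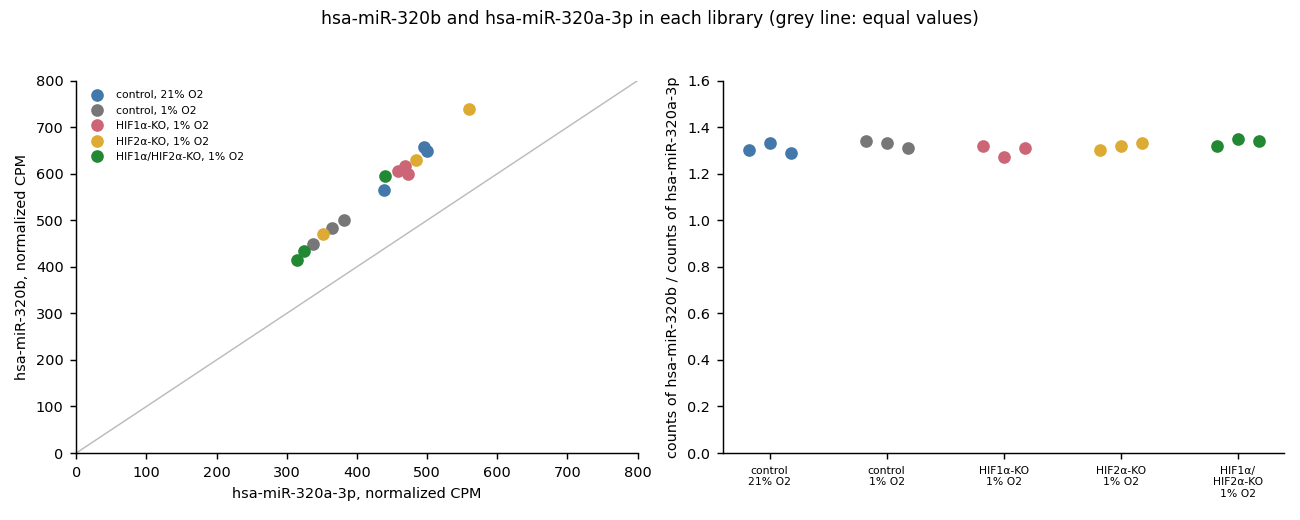
Left, normalized CPM of hsa-miR-320b (y axis) against hsa-miR-320a-3p (x axis) in the 15 libraries on linear axes, with a grey line of equal values; right, the ratio of their counts in each library, by group. All libraries lie above the line, and the ratio stays between 1.27 and 1.35 in the 5 groups.

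The shorter copies were far scarcer. Of the counts summed over hsa-miR-320a-3p, hsa-miR-320b, hsa-miR-320c, hsa-miR-320d and hsa-miR-320e in a library, hsa-miR-320b took 53.8% to 55.7%, hsa-miR-320a-3p 40.7% to 42.9%, hsa-miR-320c 2.21% to 4.1% and hsa-miR-320d 0.217% to 0.475%. Since the handling of reads that match several miRNAs is not given in the sources used here, the split between these sequences is uncertain. hsa-miR-320c was at 49.2, 32.7 and 26.4 CPM in normoxic and at 25.9, 20.7 and 25.3 CPM in hypoxic control cells, a log2 fold change of -0.59 with a standard error of 0.24. Without replicate 1 of the normoxic control, its highest library, that value was -0.30. It was between 19.6 and 34.8 CPM in the knockout libraries, and no neighbours in the order of its group means differed by more than their SD.

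hsa-miR-320d was at 4.88, 4.78 and 4 CPM in normoxic and at 2.21, 3.11 and 3.71 CPM in hypoxic control cells, with a log2 fold change of -0.58 and a standard error of 0.24. The groups did not overlap, and the adjusted p of both hsa-miR-320c and hsa-miR-320d in this comparison was 0.701. In HIF2α-KO cells hsa-miR-320d was at 5.48, 4.95 and 3.7 CPM, which overlapped with the control by 1 library. The log2 fold change was 0.64 with a standard error of 0.24 (unadjusted p = 0.0204, adjusted p = 0.263). Its highest means, 4.71 ± 0.912 CPM in HIF2α-KO and 4.55 ± 0.483 CPM in normoxic control cells, were above the other 3, of 3.01 to 3.35 CPM, by more than their SD. At 24 to 77 counts a library, the variance of its counts within groups was 1.59 times that of counting alone, against 98 times for hsa-miR-320a-3p.

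With the 5 sequences summed to 1 feature, the miR-320 family was at 1140 ± 93.9 CPM in normoxic control, 868 ± 47.4 CPM in hypoxic control, 1110 ± 9.77 CPM without HIF1α, 1120 ± 246 CPM without HIF2α and 873 ± 172 CPM without both (SD, n = 3). The log2 fold change was -0.40 with a standard error of 0.16 in hypoxia against normoxia (unadjusted p = 0.0277, adjusted p = 0.74). Against the hypoxic control it was 0.36 in HIF1α-KO cells (adjusted p = 0.4), 0.37 in HIF2α-KO cells (adjusted p = 0.309) and 0.01 in the double knockout (adjusted p = 0.982). The value in HIF2α-KO cells was 0.188 without their replicate 2. The interaction of the sum was -0.71 with a standard error of 0.23 (unadjusted p = 0.00793, adjusted p = 0.396). The summed feature therefore gave the values of its 2 main sequences and no call.

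hsa-miR-484, the other capped hairpin, is known for restraining the mitochondrial fission protein FIS1. It was at 267, 258 and 221 CPM in normoxic and at 285, 179 and 209 CPM in hypoxic control cells. In HIF1α-KO cells it was at 207, 189 and 291 CPM, in HIF2α-KO cells at 244, 241 and 154 CPM, and in HIF1α/HIF2α-KO cells at 193, 227 and 203 CPM. All groups overlapped with the hypoxic control. The means ran from 249 ± 24.3 CPM in normoxic control to 208 ± 17.7 CPM in HIF1α/HIF2α-KO cells, and no neighbours in their order differed by more than their SD. The log2 fold changes were -0.15 in hypoxia against normoxia and, against the hypoxic control, 0.03 in the HIF1α, -0.08 in the HIF2α and -0.11 in the double knockout. Each had a standard error of 0.22 and the adjusted p-values were 0.841, 0.995, 0.914 and 0.814 in that order. hsa-miR-484 had no unadjusted p under 0.05 in any comparison.

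Of the mirtron products, hsa-miR-877-5p had the smallest adjusted p of any member. It was at 5.53, 4.01 and 5.61 CPM in normoxic and at 4.24, 3.8 and 3.2 CPM in hypoxic control cells. In HIF1α-KO cells it was at 3.42, 1.86 and 3.59 CPM, in HIF2α-KO cells at 5.01, 7.04 and 4.75 CPM, and in HIF1α/HIF2α-KO cells at 6.93, 4.55 and 5.98 CPM. All libraries without HIF2α were above all hypoxic libraries with it, of HIF1α-KO and control cells. This pooling of groups was made after the values were seen, and the share of all miRNAs separated in this way was not counted. In order of the group means, from HIF1α/HIF2α-KO with 5.82 ± 1.2 CPM to HIF1α-KO with 2.96 ± 0.958 CPM, only the step from normoxic (5.05 ± 0.899 CPM) to hypoxic control cells (3.75 ± 0.52 CPM) exceeded the larger SD of the pair. These levels rested on 38 to 110 counts a library.

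Compared with HIF1α-KO cells, HIF1α/HIF2α-KO cells had hsa-miR-877-5p at a log2 fold change of 1.00 with a standard error of 0.28 (unadjusted p = 0.00291, adjusted p = 0.0818). The exact permutation p was 0.1, the lowest possible. DESeq2 gave it an adjusted p of 0.0427 there, and the adjusted p ran from 0.0427 to 0.311 over the alternative settings. In HIF2α-KO against HIF1α-KO cells it had a log2 fold change of 0.94 with a standard error of 0.28 (unadjusted p = 0.00463, adjusted p = 0.1). Against the hypoxic control its values were -0.36 in HIF1α-KO (adjusted p = 0.693), 0.58 in HIF2α-KO cells (adjusted p = 0.334) and 0.64 in the double knockout (adjusted p = 0.161). Without replicate 2 of HIF1α-KO cells the first was -0.07, and without replicate 2 of HIF2α-KO cells the second was 0.36. The interaction was 0.42 with a standard error of 0.39 (adjusted p = 0.762), so a difference between the effects of HIF1α loss with and without HIF2α was not detected. HIF1α-KO cells in hypoxia were at a log2 fold change of -0.79 against normoxic control cells (unadjusted p = 0.0128, adjusted p = 0.147). Without replicate 2 of HIF1α-KO cells this value was -0.52 and the interaction 0.15.

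hsa-miR-1226-3p, the least abundant member, was at 1.63, 2.08 and 1.42 CPM in normoxic and at 1.2, 0.908 and 0.874 CPM in hypoxic control cells. In HIF1α-KO cells it was at 2.36, 0.977 and 1.71 CPM. In HIF2α-KO cells it was at 1.8, 1.33 and 2.18 CPM and in HIF1α/HIF2α-KO cells at 2.08, 1.89 and 1.31 CPM. The hypoxic control libraries were below those of normoxic control, HIF2α-KO and HIF1α/HIF2α-KO cells, while HIF1α-KO replicate 2 fell among them. For the knockouts the share of all miRNAs separated in this way was not counted. The other 4 group means lay between 1.68 and 1.77 CPM and that of the hypoxic control was 0.993 ± 0.178 CPM, a gap to the nearest, of HIF1α-KO cells, no larger than the SD there, 0.693 CPM.

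The log2 fold change of hsa-miR-1226-3p was -0.79 with a standard error of 0.34 in hypoxia against normoxia (unadjusted p = 0.035, adjusted p = 0.701). Against the hypoxic control it was 0.74 in HIF1α-KO (adjusted p = 0.408), 0.85 in HIF2α-KO cells (adjusted p = 0.277) and 0.85 in the double knockout (adjusted p = 0.128), each with a standard error of 0.34. The value in HIF1α-KO cells was 0.45 without their replicate 1. These comparisons share the same 3 low libraries of 12 to 21 counts. With the sets of more and less miR-126 as a covariate they were -0.51, 0.73, 0.68 and 0.68. hsa-miR-1226-3p had a median of 1.8 CPM in the 9 libraries with more miR-126 and 1.14 CPM in the 6 with less, and the part of this in the result was not tested.

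Both arms had counts for the miR-320a, miR-877 and miR-1226 hairpins, and 1 arm gave most of them, summed over the 15 libraries. The 5′ arm gave 936 of 946 counts of miR-877, 98.94% with an exact 95% binomial interval of 98.06% to 99.49%. The 3′ arm gave 317 of 340 counts of miR-1226, 93.24% with an interval of 90.02% to 95.66%. The 3′ arm of miR-320a gave 87778 of 87827 counts. The intervals cover counting error only.

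Other products of the same kind were taken from a list of 20 further mirtron arms, of which 16 had counts and 2, hsa-miR-1237-3p and hsa-miR-5010-3p, were tested, and from 2 further miR-320 forms, of which hsa-miR-320e was tested. The lists were chosen with earlier results of these data known, so the share of them called is no test of this kind of miRNA. Of all miRNAs tested 1.25% were called higher in HIF1α/HIF2α-KO against hypoxic control cells. Of the 3 listed products tested 1 passed there, in the higher direction, hsa-miR-5010-3p. It was at 3.9, 3.47 and 3.22 CPM in normoxic and at 1.94, 3.5 and 3.28 CPM in hypoxic control cells. It was at 4.97, 4.01 and 4.49 CPM in HIF1α-KO, at 3.76, 4.95 and 4.46 CPM in HIF2α-KO and at 5.6, 7.58 and 5.74 CPM in HIF1α/HIF2α-KO cells. All double-knockout libraries were thus above all others, and the share of all miRNAs separated in this way was not counted. In the double knockout it rose by a log2 fold change of 1.10 with a standard error of 0.23 over the hypoxic control (adjusted p = 0.0111, and 0.00254 to 0.0663 over the alternatives). It also rose against normoxic control cells, by 0.84 with a standard error of 0.23 (adjusted p = 0.0414), where 2.49% of all tested were called higher, a call that was lost with 10 of 15 alternatives. In HIF1α-KO and HIF2α-KO against hypoxic control cells its values were 0.61 and 0.58 (adjusted p = 0.287 and 0.277). In all but these 2 comparisons of the double knockout 0 of the 3 passed (edgeR). The hairpin of miR-5010 lay within an intron of 7048 bases of ATP6V0A1, with 209 bases before it and 6719 after it, and did not fill an intron annotated in GENCODE v29 as those of miR-877 and miR-1226 did.

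hsa-miR-451a, the Ago2-cut member, is best known from red blood cells, where it is among the most abundant miRNAs, and it differed most of the 8 between libraries of one group. It was at 8.61, 10.5 and 14.8 CPM in normoxic control cells and at 18.3, 2.38 and 2.33 CPM in hypoxic control cells. In HIF1α-KO cells it was at 2.36, 2.1 and 13.9 CPM, in HIF2α-KO cells at 13.1, 3.43 and 9.31 CPM, and in HIF1α/HIF2α-KO cells at 5.67, 5.68 and 2.7 CPM. The 4 hypoxic groups overlapped with each other. The SD of its log2 values within groups was 0.988, the 16th largest of the 562 miRNAs tested, whose median was 0.255.

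The libraries high in hsa-miR-451a were those with more miR-126. It was at 5.67 to 18.3 CPM in the 9 libraries with more miR-126 and at 2.1 to 3.43 CPM in the 6 with less, without overlap. The other members overlapped between these sets, with ratios of the medians from 1.03 to 1.57 against 4.43 for hsa-miR-451a. The part of miR-126 in its levels was not tested. The libraries are of a cultured glioblastoma line, and the source of both miRNAs in them was not tested. Its red-cell companions were at or near 0. miR-144-3p reached at most 0.325 CPM, miR-144-5p 0.095 CPM and miR-486-5p 0.0432 CPM in any library. The 4 blood-cell miRNAs (miR-142-3p, miR-142-5p, miR-223-3p and miR-150-5p) summed to 2.58 to 5.53 CPM in the 9 libraries and to 1.71 to 2.91 CPM in the 6. The miR-144 and miR-451b arms, products of the same cluster, were not abundant enough to be tested.

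**Figure D4:**
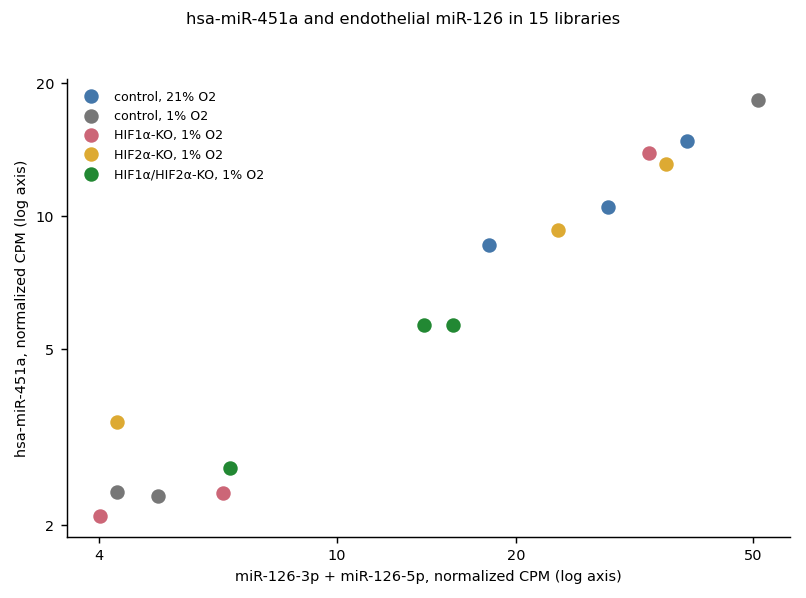
Normalized CPM of hsa-miR-451a (y axis, log) against the summed miR-126 arms (x axis, log) in the 15 libraries, coloured by group. The 6 libraries under 7 CPM of miR-126 lie at 2.1 to 3.43 CPM of hsa-miR-451a and the other 9 at 5.67 to 18.3 CPM, and each of the 4 hypoxic groups has libraries in both sets.

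No difference of hsa-miR-451a between groups passed the test. Its log2 fold change was -0.59 with a standard error of 0.82 in hypoxia against normoxia (adjusted p = 0.841). Against the hypoxic control it was -0.32 with 0.83 in HIF1α-KO (adjusted p = 0.968), 0.19 with 0.83 in HIF2α-KO (adjusted p = 0.948) and -0.68 with 0.84 in the double knockout (adjusted p = 0.675). Without replicate 1 of the hypoxic control, the one at 18.3 CPM, the value in hypoxia against normoxia was -2.27 and those of the knockouts against the control were 1.40, 1.87 and 1.02. In HIF1α/HIF2α-KO against normoxic control cells, which did not overlap, it was -1.27 with a standard error of 0.84 (adjusted p = 0.347). There the adjusted p was 0.00436 without a filter on low counts and 0.0252 with only these 6 libraries in the fit, in a range of 0.00436 to 0.594 over the alternatives. With the miR-126 sets as a covariate the value was -0.65 (adjusted p = 0.27).

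The miRNAs most like each member in level over the 15 libraries, by Pearson r of log2(CPM + 1), were as follows. hsa-miR-320a-3p and hsa-miR-320b were most like each other (r = 0.996), and next came hsa-miR-222-3p (r = 0.857 and 0.844) and hsa-miR-191-5p (r = 0.809 and 0.799). hsa-miR-484 was most like hsa-miR-185-3p (r = 0.835), and hsa-miR-877-5p most like hsa-miR-193b-3p (r = 0.864). The highest r of hsa-miR-320c was 0.653, with hsa-miR-28-3p, that of hsa-miR-320d 0.785, with hsa-miR-10527-5p, and that of hsa-miR-1226-3p 0.616, with hsa-miR-342-3p. hsa-miR-451a was most like hsa-miR-199a-5p, hsa-miR-199b-3p and hsa-miR-199a-3p, with r of 0.96 or 0.97 among the 9 libraries with more miR-126 and of 0.9, 0.69 and 0.69 among the 6 with less. The points of each r share library, depth and normalization.

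Across the members, hsa-miR-320a-3p had r of 0.46 with hsa-miR-484, -0.13 with hsa-miR-877-5p, 0.13 with hsa-miR-1226-3p and 0.07 with hsa-miR-451a. hsa-miR-484 had r of 0.56 with hsa-miR-451a, and the mirtron products hsa-miR-877-5p and hsa-miR-1226-3p had r of 0.32 with each other. Within the miR-320 copies, hsa-miR-320a-3p had r of 0.6 with hsa-miR-320c and 0.67 with hsa-miR-320d.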

How the data were processed

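The miRNA-Seq libraries comprised 5 groups of 3, grouped by the genotype and oxygen condition in their labels. The values deposited by the authors are raw counts, whole numbers for each mature miRNA. The submitters' processing notes name HISAT2, StringTie and DESeq2, without versions or roles. The build and the treatment of reads matching several miRNAs are not given in the sources used here. The quantile normalization with limma in the paper's methods is not part of the deposited counts.

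For the analysis edgeR 4.0.16 (R 4.3.3) was used with TMM factors. filterByExpr kept 562 miRNAs, and 1 quasi-likelihood fit to the 15 libraries with 5 group means gave 11 contrasts, with Benjamini-Hochberg adjustment over the 562 miRNAs and a threshold of 0.05. Levels of single miRNAs were compared by exact permutation (two-sided), where p cannot be below 0.1. The fits were tested on simulated data. No replicates were copies of one another (smallest chi-square per degree of freedom 25.7). Replicate numbers come from the titles. Libraries of the same number deviated together in HIF2α-KO and hypoxic control cells (r = 0.12 to 0.52 across miRNAs) and in no other pair of groups.

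The text names the 8 members, other arms and cluster partners of their hairpins, and the 3 tested miRNAs most like each member by Pearson r. The members and lists were chosen with earlier results of these data known. DESeq2 1.42.0, limma 3.58.1, other scalings and filters, the groups compared alone, a replicate block, the miR-126 sets as a covariate and each replicate left out were the alternatives.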

Additional observations from a re-analysis of the deposited data

How the results depend on the processing

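Of the 1368 fitted values of the 8 members under the alternatives, 3 passed the adjusted threshold. These were hsa-miR-877-5p in HIF1α/HIF2α-KO against HIF1α-KO cells with DESeq2 (1 member called instead of 0), and hsa-miR-451a in HIF1α/HIF2α-KO against normoxic control cells without a filter and with only the groups compared (1 instead of 0 in each). In all other settings, each replicate left out included, 0 members were called in each comparison. A further 122 values, in 37 of 88 results, had another sign and were not called in either fit. Besides hsa-miR-451a, none of these results had a fitted value over 0.22 in size. The causes were not tested.

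The summed miR-320 family was not called in any setting. In HIF1α/HIF2α-KO against hypoxic control cells it turned to -0.033 without a filter, -0.011 with at least 10 counts in every library, -0.004 with the replicate block and -0.009 with only the groups compared, and to -0.13 to 0.12 with 1 replicate left out. In HIF2α-KO against HIF1α-KO cells it turned to -0.168 with library totals, -0.173 with limma, -0.038 with at least 10 counts, -0.006 with the replicate block and -0.054 with only the groups compared, and to -0.193 to 0.084 with 1 replicate left out. In HIF1α-KO against normoxic control cells it turned to 0.042 with library totals, 0.023 with limma and 0.008 with only the groups compared, and to -0.082 to 0.015 with 1 replicate left out. In HIF2α-KO against normoxic control cells it was -0.204 to 0.079 with 1 replicate left out. Library totals moved the median of all miRNAs by up to 0.2 (log2), in HIF1α/HIF2α-KO against HIF2α-KO cells.

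The alternatives were applied to hsa-miR-5010-3p and its list after the data had been seen. The number of listed products called in HIF1α/HIF2α-KO cells went from 1 to 0 against hypoxic control cells with only the groups compared. Against normoxic control cells it went to 0 with limma, without a filter, with the replicate block, with the miR-126 sets and with each of the replicates left out (0 in all 6). The replicate block changed no other call of the members, the family sum or the list. Of all miRNAs it called 6 instead of 7 in HIF1α-KO against control cells and 3 instead of 6 in HIF2α-KO against HIF1α-KO cells. In the double knockout it called 9 instead of 8 against HIF1α-KO and 7 instead of 10 against HIF2α-KO cells. Against normoxia it called 9 instead of 13 in HIF1α-KO and 26 instead of 36 in HIF1α/HIF2α-KO cells. In the remaining comparisons the number did not change. Over all miRNAs tested, the number called ranged over the 9 alternatives other than left-out replicates from 0 to 12 (7 in the fit reported) in HIF1α-KO, 0 to 11 (0) in HIF2α-KO and 26 to 61 (33) in HIF1α/HIF2α-KO against control cells, 0 to 15 (0) in hypoxia, 3 to 26 (13) in HIF1α-KO, 0 to 13 (0) in HIF2α-KO and 26 to 78 (36) in HIF1α/HIF2α-KO cells against normoxia, and 0 to 5 (0) for the interaction. It ranged from 0 to 20 (6) between the single knockouts, and from 0 to 26 (8) and 2 to 21 (10) in the double against the HIF1α and the HIF2α knockout.

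With 3 libraries a group, hsa-miR-451a had a standard error of 0.82 to 0.84 between groups, and larger differences were not resolved either. That of -1.27 in HIF1α/HIF2α-KO against normoxic control cells had an adjusted p of 0.347 (edgeR). hsa-miR-1226-3p rested on 12 to 33 counts a library.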
